A study of Mus musculus with 12 samples.

Results

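Subunits of the NMDA and AMPA receptors were taken as a gene family. No measured value entered the rule, although the members were chosen with earlier results of these data known. The 10 genes used as members, not a full list of the subunits, were Grin1, Grin2a, Grin2b, Grin2c, Grin2d, Grin3a, Gria1, Gria2, Gria3 and Gria4. Every probe set (a group of short probes read as 1 value) that the array's annotation names with one of these symbols was used, which gave 21 of the 45101 probe sets on the array and 9 of the 18194 genes they name, 11 of NMDA and 10 of AMPA receptor genes. In that annotation no probe set carried the symbol Grin1. A probe set that a supplementary table of the study pairs with Grin1, 1450202_at, is described apart and enters no count. Of the 21 probe sets, 19 lay above a limit on low signal set at the 45% lowest means over all arrays (a mean log2 value of 5.15), which left 8 genes. The only probe set of Grin2a (1421616_at, mean 4.58) and 1 of the 2 probe sets of Grin2d (1421393_at, mean 5.06) lay below it and were not tested.

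The values are log2 signals from 12 mouse expression arrays, run on the medial prefrontal cortex (PFC) of adult males, which the labels give as 12 weeks old. Fyn-null ethanol and control ethanol mice received 3 g/kg ethanol into the peritoneum and were killed 4 hours later, and Fyn-null saline and control saline mice received saline in its place. Mice of all 4 groups had been habituated to saline injections beforehand. Fyn-null mice were B6;129S7-Fyntm1Sor/J and control mice B6129SF2/J, which are separate stocks, so loss of Fyn and a difference of stock cannot be told apart. Each group had 3 arrays and each array held the RNA of 3 mice pooled before extraction, so that the spread between arrays is a spread between pools. The dissection as described in the study also took in neighbouring motor cortex.

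The signal of Fyn, in 1 of its 2 probe sets, set 2 pools against their labels. In the higher of its 2 probe sets, Fyn-null saline replicate 4, as labelled, was at 9.45 on the log2 scale, while the other Fyn-null pools lay between 8.64 and 9.01. Control saline replicate 2, as labelled, was at 8.74, while the other control pools lay between 9.31 and 9.70. In the other Fyn probe set the genotypes overlapped. There Fyn-null saline replicate 4, at 7.75, lay within the other Fyn-null pools (7.50 to 7.81). Control saline replicate 2, at 7.53, lay below the other control pools (7.65 to 7.95). The doubt about Fyn-null saline replicate 4 thus rests on 1 probe set. Labels were kept as given, and values without both pools, an alternative added once these had been seen, are given beside some of the results. A sign of RNA quality also differed between treatments. The log2 signal at the 3' end minus that at the 5' end of the Gapdh control transcript was 0.052 on average in ethanol pools, against 0.281 in saline pools, and the groups did not overlap (two-sided exact permutation test, p = 0.002165, n = 6 each). For the Actb control transcript the same difference was 0.873 in ethanol pools and 1.26 in saline pools (p = 0.01082, same exact test).

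NMDA receptors are glutamate-gated channels of 4 subunits that pass calcium once glutamate and a co-agonist are bound and depolarization has relieved their magnesium block. GluN1, from Grin1, is part of every NMDA receptor, and the GluN2 subunits from Grin2a to Grin2d set the kinetics and partners of the channel. AMPA receptors, built from GluA1 to GluA4 of Gria1 to Gria4, carry most of the fast excitatory current between cortical neurons. Fyn is a Src-family tyrosine kinase for which the GluN2B subunit is a known substrate, and NMDA receptors are a known target of ethanol. The array measures RNA only, so phosphorylation and the amount of receptor protein are outside its reach. In bulk tissue, fewer cells of a type and less RNA per cell cannot be told apart.

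No receptor probe set differed between any groups at an adjusted p under 0.05 (limma, with Benjamini-Hochberg adjustment over 24770 probe sets). That was so of all 19 in each of 7 comparisons, which were the genotypes under saline, the genotypes under ethanol, ethanol in either genotype, the interaction, and genotype and ethanol as additive terms over all 12 arrays. Across the array, ethanol over both genotypes gave calls for 6.81% of probe sets (2.58% higher and 4.22% lower), ethanol in control mice for 1.43% (0.509% higher and 0.925% lower) and ethanol in Fyn-null mice for 0.4% (0.254% higher and 0.145% lower), while the 4 other comparisons gave 0%. The precision was limited by 3 pools a group. The median standard error of a difference between 2 groups was 0.14 on the log2 scale over the receptor probe sets, and 0.11 over all probe sets.

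**Figure D1:**
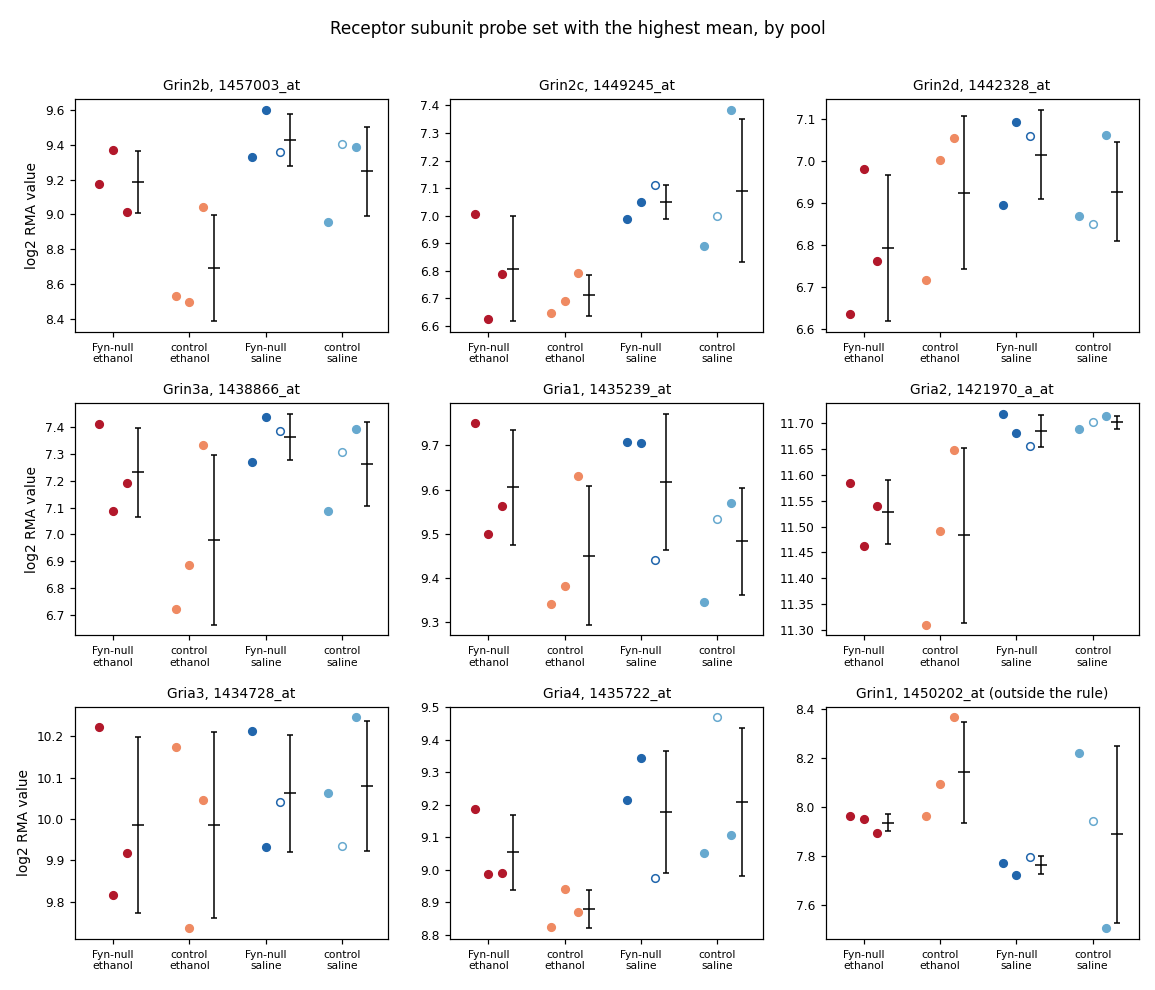
Log2 RMA value (vertical axis, 1 scale per panel, not starting at 0) of the probe set with the highest mean of each of the 8 genes, and of the probe set paired with Grin1, in the 12 pools by group. Points are pools, open points the 2 pools whose signal in the higher Fyn probe set went against their label, and bars are mean ± SD (n = 3). The ethanol pools of Gria2 all sit below its saline pools.

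Grin2b, which encodes GluN2B, was measured by 4 probe sets that did not move together. The brightest, 1457003_at, had log2 values of 9.17, 9.37 and 9.01 in Fyn-null ethanol pools and 8.53, 8.50 and 9.04 in control ethanol pools. It had 9.33, 9.60 and 9.36 in Fyn-null saline pools and 8.96, 9.40 and 9.38 in control saline pools. Control ethanol replicates 1 and 2 were the lowest of the 12 pools, and the groups overlapped in each comparison. In control mice the ethanol minus saline difference was -0.55 (standard error 0.16, 95% interval -0.91 to -0.20, adjusted p = 0.1065, limma), and in Fyn-null mice it was -0.24 (standard error 0.16, adjusted p = 0.623). The difference between these 2 responses was 0.31 (interval -0.19 to 0.82, adjusted p = 0.992), so the responses were not shown to differ. Over both genotypes ethanol pools averaged 8.94 and saline pools 9.34, a difference of -0.40 (standard error 0.12, adjusted p = 0.0617). Fyn-null pools were higher than control pools by 0.49 under ethanol (9.19 ± 0.18 against 8.69 ± 0.30, SD, n = 3 each, adjusted p = 0.219, limma) and by 0.18 under saline (9.43 ± 0.15 against 9.25 ± 0.25, adjusted p = 0.9999). Without both doubted pools the saline difference was 0.29 (adjusted p = 0.783). With the 3' to 5' difference of the control transcripts as a covariate, another alternative added later, ethanol minus saline over both genotypes was -0.22 (standard error 0.20, adjusted p = 0.832).

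The 3 dimmer probe sets of Grin2b gave other pictures. In 1422223_at the log2 values were 5.72, 6.32 and 5.88 in Fyn-null ethanol pools and 5.56, 5.54 and 5.93 in control ethanol pools. They were 5.34, 5.36 and 5.56 in Fyn-null saline pools and 5.65, 5.62 and 4.87 in control saline pools. All 3 Fyn-null ethanol pools lay above all 3 Fyn-null saline pools (0.55, standard error 0.21, adjusted p = 0.318, limma), and over both genotypes the ethanol minus saline difference was 0.43 (adjusted p = 0.0917), opposite in sign to that of the brightest probe set. In 1442370_at that difference was 0.24 (standard error 0.17, adjusted p = 0.412). With the 3' to 5' covariate these 2 differences over both genotypes turned to -0.10 and -0.18, the sign of the brightest probe set, and that of 1422223_at in Fyn-null mice was 0.0025. The values of 1442370_at ran against those of the brightest probe set, with a Pearson correlation of -0.79 across the 12 pools. For 1422223_at the correlation was -0.14. Both are given as a description since the pools share treatment and RNA quality. In 1431700_at the interaction was -0.38 (interval -0.70 to -0.05, adjusted p = 0.992, limma), and it was the only one of 19 at an unadjusted p under 0.05 in that comparison.

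**Figure D2:**
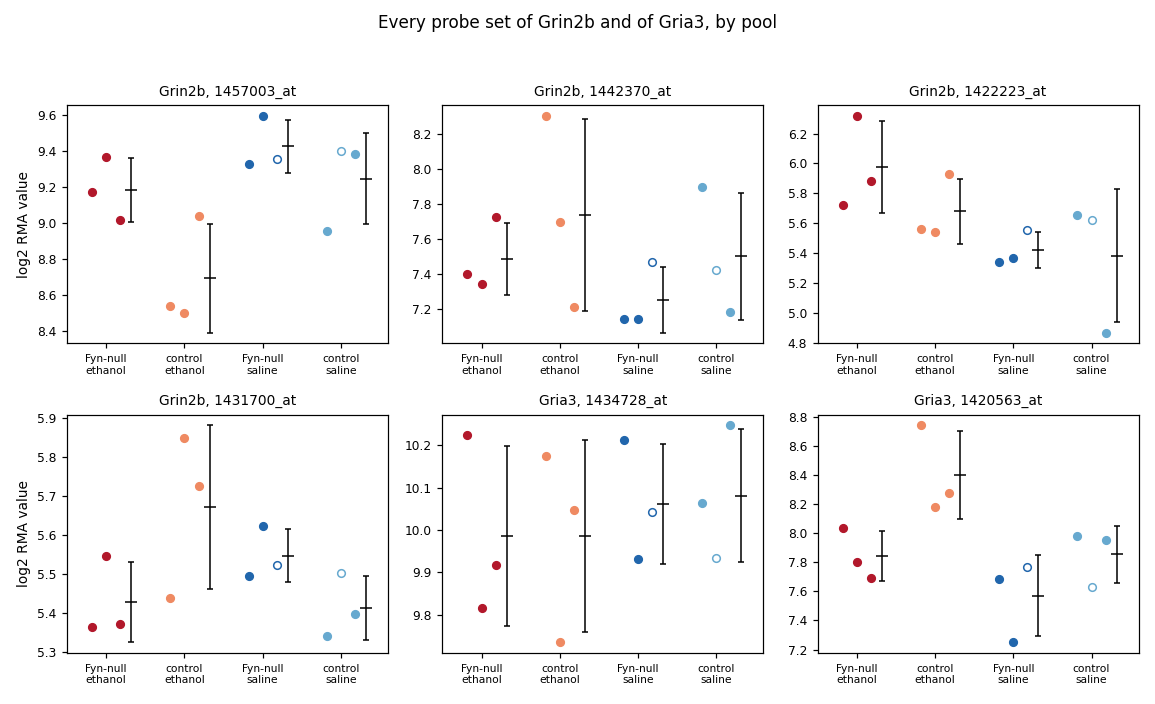
Log2 RMA value (vertical axis, 1 scale per panel, not starting at 0) of the 4 probe sets of Grin2b and the 2 of Gria3 in the 12 pools by group, with mean ± SD (n = 3) and the 2 doubted pools as open points. Grin2b 1457003_at is lowest in 2 control ethanol pools (8.53 and 8.50), whereas Gria3 1420563_at is highest in the 3 control ethanol pools (8.18 to 8.74).

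Grin2c encodes GluN2C, a subunit known for weak magnesium block and in forebrain found in astrocytes and some interneurons. Its probe set 1449245_at had log2 values of 7.01, 6.63 and 6.79 in Fyn-null ethanol pools and 6.65, 6.69 and 6.79 in control ethanol pools. It had 6.99, 7.05 and 7.11 in Fyn-null saline pools and 6.89, 7.00 and 7.38 in control saline pools. The control groups did not overlap, with ethanol below saline, whereas Fyn-null ethanol replicate 1 reached into the saline range. Over both genotypes the difference was -0.31 (standard error 0.09, interval -0.50 to -0.12), with the smallest adjusted p of any receptor probe set, 0.0527 (limma), which misses the threshold. It was -0.38 in control mice (adjusted p = 0.145) and -0.24 in Fyn-null mice (adjusted p = 0.501). With the 3' to 5' covariate it was 0.05 (adjusted p = 0.937). Genotype differences of Grin2c were -0.04 under saline and 0.10 under ethanol.

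None of the other NMDA receptor probe sets was called. Grin2d, of GluN2D, a subunit of cortical interneurons, lay between 6.64 and 7.09 in all pools in 1442328_at, and ethanol minus saline was -0.11 over both genotypes (interval -0.295 to 0.07). Its other probe set, 1421393_at, had group means of 5.01 to 5.12. Grin3a encodes GluN3A, which lowers calcium entry and in cortex is most abundant early in life. Its brightest probe set, 1438866_at, averaged 7.11 in ethanol pools and 7.31 in saline pools (-0.21, standard error 0.10, adjusted p = 0.228), with a sample range of 6.72 to 7.44. Its 2 other probe sets differed by -0.07 and 0.12 in the same comparison. Grin2a, of GluN2A, the main partner of GluN2B in adult cortex, had group means of 4.50 ± 0.23 in Fyn-null ethanol, 4.93 ± 0.16 in control ethanol, 4.39 ± 0.19 in Fyn-null saline and 4.48 ± 0.20 in control saline pools (SD, n = 3). Its 3 control ethanol pools, at 4.85, 5.12 and 4.82, lay above the 9 other pools, of which the highest was at 4.66, but the probe set was below the limit on low signal and was not tested. In the probe set paired with Grin1, 1450202_at, the groups averaged 7.93 ± 0.035 in Fyn-null ethanol, 8.14 ± 0.21 in control ethanol, 7.76 ± 0.04 in Fyn-null saline and 7.89 ± 0.36 in control saline pools. All Fyn-null ethanol pools lay below all control ethanol pools, with 7.960 and 7.963 as the nearest values (-0.21, adjusted p = 0.590), and above all Fyn-null saline pools (0.17, adjusted p = 0.729, limma). Ethanol minus saline was 0.21 over both genotypes (interval -0.01 to 0.44, adjusted p = 0.229), and Fyn-null minus control was -0.17 over both treatments (adjusted p = 0.585).

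Among AMPA receptor genes, Gria2 encodes GluA2, the subunit whose edited form keeps AMPA receptors nearly closed to calcium. Its brightest probe set, 1421970_a_at, had log2 values of 11.58, 11.46 and 11.54 in Fyn-null ethanol pools and 11.31, 11.49 and 11.65 in control ethanol pools. It had 11.72, 11.68 and 11.66 in Fyn-null saline pools and 11.69, 11.70 and 11.71 in control saline pools. All 6 ethanol pools lay below all 6 saline pools, a separation found in 3.9% of probe sets in either direction, although the nearest values, 11.65 and 11.66, were close. Ethanol minus saline was -0.19 over both genotypes (standard error 0.06, fold 0.88, adjusted p = 0.0744, limma), -0.22 in control and -0.16 in Fyn-null mice. The probe set 1453098_at differed by -0.18 (adjusted p = 0.0808) and correlated with the brightest at 0.77 over the 12 pools, whereas 1434146_at differed by -0.03. Under saline 1434146_at was lower in Fyn-null pools, at 10.62 ± 0.16, than in control pools, at 10.89 ± 0.11 (SD, n = 3 each). That difference, -0.27, was the only one of 19 at an unadjusted p under 0.05 in that comparison (adjusted p = 0.9999, limma), against 1.89% of all probe sets.

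Gria4 encodes GluA4, the subunit of fast AMPA receptors of parvalbumin interneurons. In 1435722_at the log2 values were 9.19, 8.99 and 8.99 in Fyn-null ethanol pools and 8.82, 8.94 and 8.87 in control ethanol pools. They were 9.21, 9.34 and 8.97 in Fyn-null saline pools and 9.05, 9.47 and 9.11 in control saline pools. Control ethanol pools lay below all other pools. Ethanol minus saline was -0.23 over both genotypes (adjusted p = 0.134, limma), -0.33 in control mice (adjusted p = 0.182) and -0.12 in Fyn-null mice (adjusted p = 0.769). The 2 dimmer probe sets of Gria4 had the opposite sign over both genotypes, 0.23 in 1440891_at (adjusted p = 0.338) and 0.27 in 1421351_at (adjusted p = 0.169). With the 3' to 5' covariate the 3 differences were -0.21 in 1435722_at, 0.27 in 1440891_at and 0.07 in 1421351_at. Without both doubted pools Fyn-null minus control in 1435722_at under saline was 0.20 (adjusted p = 0.694) in place of -0.03.

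Gria3 encodes GluA3, which pairs mostly with GluA2 in cortex. Its bright probe set, 1434728_at, lay between 9.74 and 10.25 with all groups overlapping, and its differences ran between -0.10 and 0.02 in the 7 comparisons. The dimmer one, 1420563_at, had log2 values of 8.03, 7.80 and 7.69 in Fyn-null ethanol pools and 8.74, 8.18 and 8.28 in control ethanol pools. It had 7.69, 7.25 and 7.77 in Fyn-null saline pools and 7.98, 7.63 and 7.96 in control saline pools. All control ethanol pools lay above all other pools. Under ethanol Fyn-null minus control was -0.56 (standard error 0.17, interval -0.93 to -0.18, fold 0.68, adjusted p = 0.199, limma), and under saline it was -0.29 (standard error 0.17), or -0.50 without both doubted pools (adjusted p = 0.578). Over both treatments it was -0.42 (standard error 0.12, adjusted p = 0.328). Ethanol minus saline was 0.54 in control mice (adjusted p = 0.126), 0.27 in Fyn-null mice and 0.41 over both (adjusted p = 0.0618). Without both doubted saline pools, the difference of Gria3 1420563_at over both treatments was -0.53 (standard error 0.12) and passed, with an adjusted p of 0.0388. Leaving out these pools raised the calls over the whole array from 0% to 2.7%.

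Gria1 encodes GluA1, the subunit of activity-driven AMPA receptor insertion. In 1435239_at group means lay between 9.45 and 9.62, and ethanol minus saline was -0.02 over both genotypes (interval -0.19 to 0.14). In 1448972_at single pools ran from 7.85 in Fyn-null saline replicate 3 to 9.85 in Fyn-null saline replicate 4, the widest range of any receptor probe set. Its standard error for a difference between 2 groups was 0.40, so that under saline Fyn-null minus control was -0.32 with an interval of -1.18 to 0.54. Fyn-null saline replicate 4 is one of the doubted pools, and without both the difference was -0.98 (standard error 0.36, adjusted p = 0.529, limma), and over both treatments -0.56 (adjusted p = 0.262) in place of -0.30. The 2 probe sets of Gria1 correlated at -0.50 over the 12 pools.

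Counted together, ethanol over both genotypes had 8 of 19 receptor probe sets at an unadjusted p under 0.05, 3 higher and 5 lower, against 24.3% of all probe sets. In control mice the count was 7 of 19 (18.9% of all), with 4 whose groups did not overlap (23% of all), and in Fyn-null mice 2 of 19 (11.7% of all), with 3 not overlapping (18.1% of all). Between genotypes the counts were 3 of 19 under ethanol (13.6% of all) and 2 of 19 over both treatments (11.1% of all), and the interaction had 1 of 19 (4.13% of all). Groups did not overlap in 2 of 19 probe sets under ethanol (20.3% of all), in 0 of 19 under saline (5.16% of all) and in 0 of 19 over both treatments (0.307% of all). By the brightest probe set of each of the 8 genes, the median ethanol response over both genotypes was -0.20, all 8 below 0, where the median of all genes was -0.04. Over the 19 probe sets it was -0.03, with 8 above 0 and 11 below, where the median of all probe sets was -0.02.

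**Figure D3:**
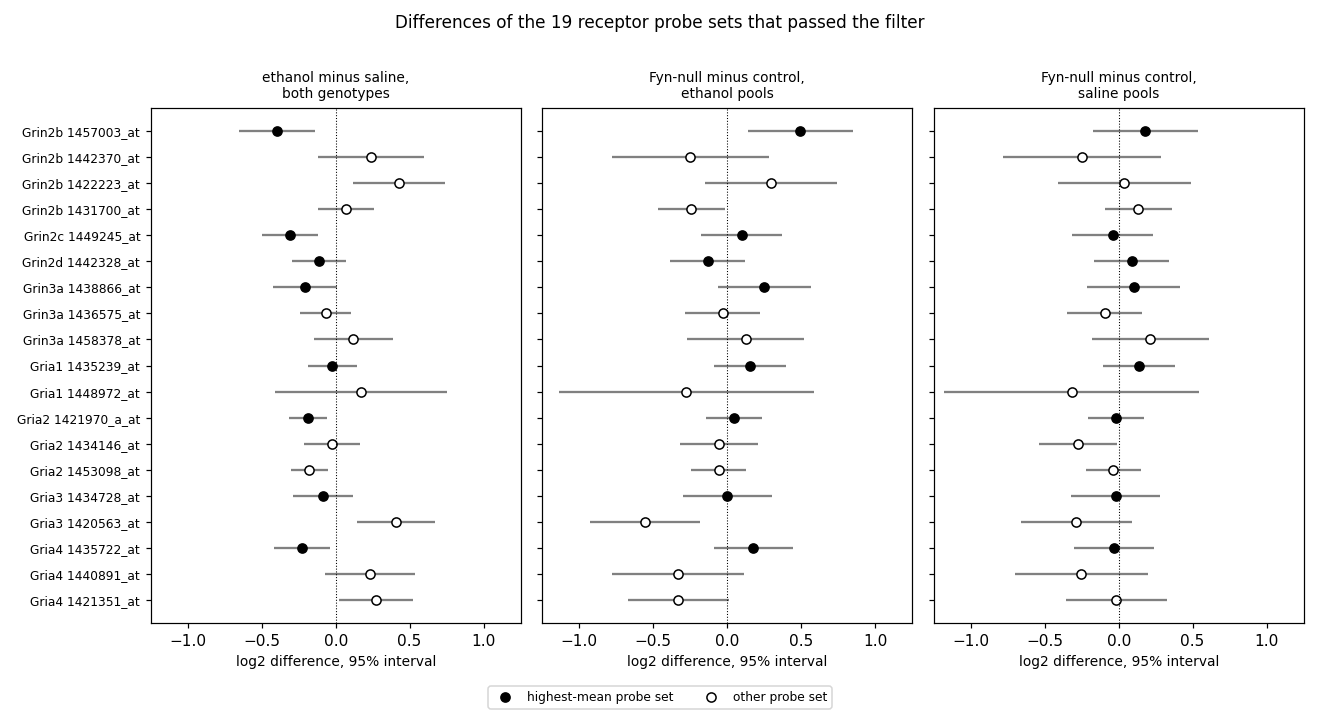
Log2 differences (horizontal axis) with 95% intervals of the 19 receptor probe sets, for ethanol minus saline over both genotypes, Fyn-null minus control under ethanol and Fyn-null minus control under saline. Filled points are the brightest probe set of a gene and open points the others; in the left panel the filled points of Grin2b (-0.40) and Gria4 (-0.23) lie left of 0 and most open points of these genes right of it.

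Ethanol thus had opposite signs in different probe sets of 1 gene, and this was measured directly as the difference between another probe set and the brightest one of the same gene within each pool, a comparison added after the values were seen. Pairs of this kind numbered 11 for 6 receptor genes and 8895 for 5425 genes of the whole array, and pairs of 1 gene share their brightest probe set. Over both genotypes 2 of 11 receptor pairs were called, against 1.84% of all pairs. Neither was called on leaving out any 1 of 5 pools (control ethanol replicates 1 and 2, Fyn-null ethanol replicates 2 and 3, Fyn-null saline replicate 3) or with the replicate number as a block (adjusted p = 0.103 in Gria3 and 0.0995 in Grin2b). In Gria3, 1420563_at minus 1434728_at was -2.19, -2.01 and -2.23 in Fyn-null ethanol pools and -1.43, -1.56 and -1.77 in control ethanol pools. It was -2.53, -2.68 and -2.27 in Fyn-null saline pools and -2.08, -2.30 and -2.29 in control saline pools. Within each genotype all ethanol pools lay above all saline pools, a separation whose share over all pairs was not counted. The shift was 0.49 (standard error 0.10, adjusted p = 0.0300, limma over all pairs).

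In Grin2b, 1422223_at minus 1457003_at was -3.45, -3.05 and -3.14 in Fyn-null ethanol pools and -2.97, -2.96 and -3.11 in control ethanol pools. It was -3.99, -4.23 and -3.80 in Fyn-null saline pools and -3.30, -3.78 and -4.52 in control saline pools. Ethanol and saline pools did not overlap within either genotype, and the shift was 0.82 (standard error 0.17, adjusted p = 0.0309). The mean log2 value of 1422223_at over all arrays was 5.61, near the limit on low signal (5.146), and that of 1457003_at was 9.14. In control saline replicate 3, the pool at -4.52, the value of 1422223_at was 4.87, below that limit. The part of low signal in this shift was not tested. The other Grin2b pairs shifted by 0.64 and 0.47, the Gria4 pairs by 0.46 and 0.50, the Grin3a pairs by 0.14 and 0.33, the Gria1 pair by 0.20 and the Gria2 pairs by 0.16 and 0.01, none of them called. All 11 were above 0, where the share of all pairs above 0 was not counted. At an unadjusted p under 0.05 there were 7 of 11, against 21.3% of all pairs. None of the 11 was called in any other comparison, in which 0% of all pairs were called, save ethanol in Fyn-null mice with 0.0112%. Unadjusted, 6 of 11 passed in control mice (16.9% of all) and 2 of 11 in Fyn-null mice (8.25% of all), and 1 of 11 for the interaction (3.51% of all).

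**Figure D4:**
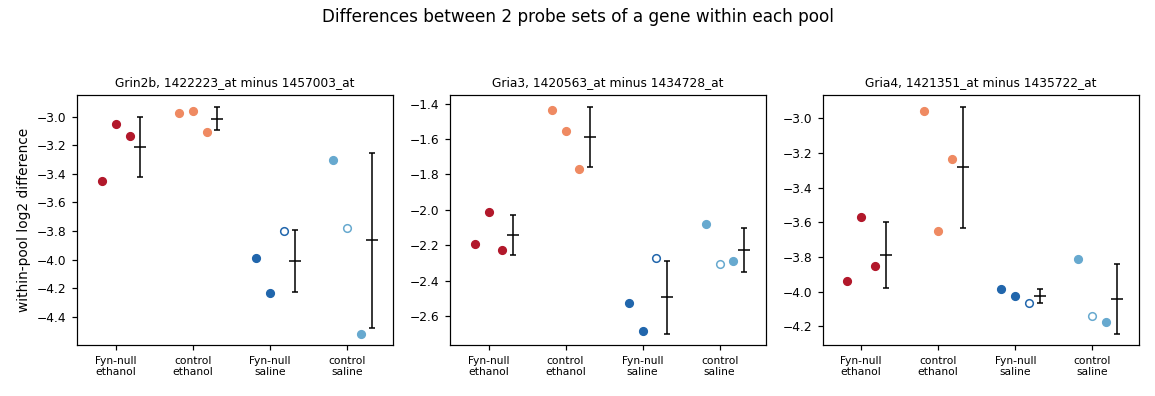
Difference on the log2 scale between 2 probe sets of 1 gene within each pool (vertical axis) for Grin2b, Gria3 and Gria4, by group, with mean ± SD (n = 3) and the 2 doubted pools as open points. In Grin2b the control ethanol pools lie at -3.11 to -2.96 and the control saline pools at -4.52 to -3.30, and in Gria3 the control ethanol pools lie above all other pools.

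The 3' to 5' difference of the control transcripts differed between the same pools, and was set beside the shifts. Ethanol and RNA quality thus cannot be told apart here, and the part of either in the shifts was not tested. With the mean 3' to 5' difference of Actb and Gapdh as a covariate, the Grin2b shift was 0.12 (standard error 0.15, adjusted p = 0.991) and the Gria3 shift 0.37 (standard error 0.17, adjusted p = 0.817), and 0% of all pairs were called. That mean lay between 0.387 and 0.627 in ethanol pools, against 0.5415 to 0.991 in saline pools. The saline pool with the highest mean, control saline replicate 3 (0.991), had the lowest Grin2b value (-4.52). The saline pool with the lowest mean, control saline replicate 1 (0.5415), had the highest Grin2b value among saline pools (-3.30). In Gria3 the lowest value (-2.68) was in Fyn-null saline replicate 3, while control saline replicate 3 was at -2.29. Where each probe set lies along its transcript was not analysed here. By the annotation, 11 of the 21 receptor probe sets were designed on expressed sequence tags, 8 on RefSeq mRNAs and 2 on cDNA clones. In both called pairs the brighter probe set came from a tag and the dimmer one from a RefSeq mRNA. The same was so of the Gria4 pair of 1421351_at (shift 0.50) and the Gria1 pair (shift 0.20), which were not called. Without both doubted pools the Gria3 shift was 0.53 (adjusted p = 0.0419) and the Grin2b shift 0.90 (adjusted p = 0.0532).

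**Figure D5:**
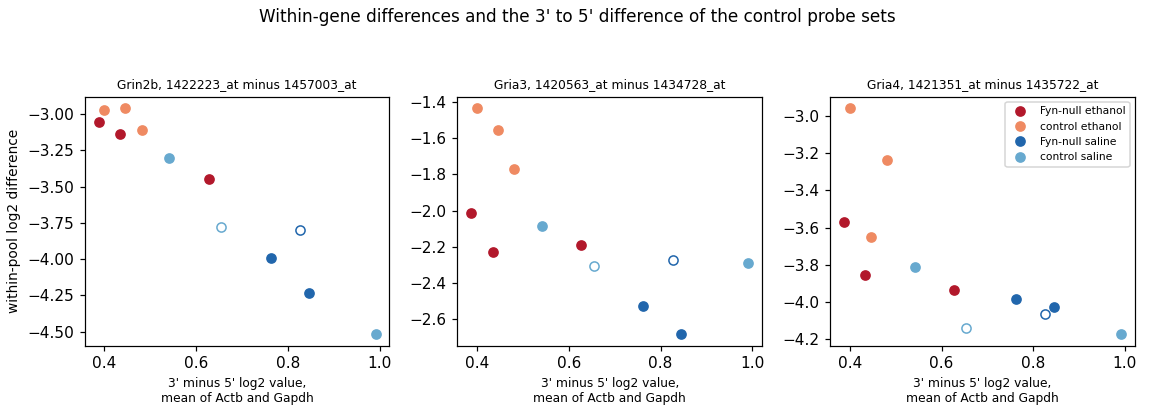
Within-pool log2 difference between 2 probe sets of Grin2b, Gria3 and Gria4 (vertical axis) against the 3' minus 5' log2 value of the control transcripts, mean of Actb and Gapdh (horizontal axis), 1 point per pool coloured by group, open for the 2 doubted pools. Ethanol pools lie at 0.387 to 0.627 on the horizontal axis and saline pools at 0.5415 to 0.991, and the lowest Grin2b value (-4.52) belongs to the pool furthest right.

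Between genotypes the same pairs leaned the other way. Under ethanol all 11 were below 0, where the share of all pairs below 0 was not counted. Of them 4 were at an unadjusted p under 0.05 (12.6% of all pairs) and none was called. Grin2b 1431700_at minus 1457003_at was at -0.74 (adjusted p = 0.1345, limma), the Grin2b pair of 1442370_at also at -0.74 but with a wider error (adjusted p = 0.451), and the Gria3 pair at -0.56 (adjusted p = 0.163). Under saline no pair passed even unadjusted (1.73% of all pairs), and over both treatments 4 did (11% of all pairs). Without both doubted pools the Gria3 pair passed over both treatments, at -0.50 (standard error 0.09, adjusted p = 0.0207), when 2.27% of all pairs did.

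The brightest probe sets of Grin2c, Gria2 and Gria4 were among those lower at an unadjusted p under 0.05 over both genotypes, and RefSeq (GRCm38.p6) gave the sequence before an annotated start of each, as for 5 of the 10 genes. They are shown to give the sequence context of the genes with the ethanol values above, 250 bases upstream of the start, 5′ to 3′ on the gene's strand (minus in each). By the annotated gene bounds only the Gria4 window lies wholly outside its gene, next to its end at 4796234. The Gria2 window lies inside its gene (80681450 to 80804227), and the Grin2c window overlaps the end of its gene at 115267297. Capitals mark the GC box, GGGCGG on either strand, the letters bound by Sp1-family factors, and overlapping boxes run together.
Grin2c, chr11:115267244-115267493: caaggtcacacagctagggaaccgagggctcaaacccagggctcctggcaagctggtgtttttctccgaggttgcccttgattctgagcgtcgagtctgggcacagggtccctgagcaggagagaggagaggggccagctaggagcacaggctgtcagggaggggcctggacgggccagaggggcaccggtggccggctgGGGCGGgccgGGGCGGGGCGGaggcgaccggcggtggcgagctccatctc
Gria2, chr3:80802836-80803085: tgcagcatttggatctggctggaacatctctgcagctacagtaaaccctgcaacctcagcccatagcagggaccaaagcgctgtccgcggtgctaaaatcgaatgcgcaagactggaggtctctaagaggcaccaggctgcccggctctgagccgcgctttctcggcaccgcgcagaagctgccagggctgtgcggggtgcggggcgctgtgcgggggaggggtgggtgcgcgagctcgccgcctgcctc
Gria4, chr9:4796235-4796484: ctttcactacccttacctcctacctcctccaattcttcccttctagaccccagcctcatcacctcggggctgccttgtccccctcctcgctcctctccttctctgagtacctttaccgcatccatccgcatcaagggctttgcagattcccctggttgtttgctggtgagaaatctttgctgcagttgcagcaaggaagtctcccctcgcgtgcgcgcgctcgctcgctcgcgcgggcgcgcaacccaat
Grin2c had 3 GC boxes, and these letters were not in the windows of Gria2 and Gria4, while 32.7% of 32851 windows of this length held at least 1. The core of the cAMP response element, TGACG on either strand, was in 17.8% of windows and in none of these 3. CpG dinucleotides numbered 15 in Grin2c, 19 in Gria2 and 16 in Gria4, where the median window had 6.

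Of the partners of these receptors few genes were called, at shares to be read against the 6.81% of all probe sets called for ethanol over both genotypes. With the 3' to 5' covariate that share was 0.109%, and values of the genes below with it are not given here. Among 22 measured genes for auxiliary and trafficking proteins of AMPA receptors, ethanol raised 1 and lowered none, with 6 above 0 and 16 below and a median of -0.06 beside -0.04 over all genes. The 1 was Nptx1, a neuronal pentraxin that gathers AMPA receptors at synapses, at 10.70 in ethanol pools against 10.35 in saline pools (0.36, standard error 0.07, adjusted p = 0.0154, limma). Among 15 genes for co-agonist supply, partners and kinases of NMDA receptors, 1 fell and none rose, with 14 of 15 below 0 (median -0.14). It was Csnk2a1, a catalytic subunit of casein kinase 2, at 8.17 in ethanol pools against 8.42 in saline pools (-0.25, standard error 0.06, adjusted p = 0.0282). Among 13 postsynaptic scaffold genes 1 fell, Dlgap3, which links PSD-95 to Shank proteins (9.67 against 9.90, -0.23, adjusted p = 0.0314), with 11 of 13 below 0 and a list median of -0.14. None of 9 genes for glutamate release, uptake and synthesis (median -0.03) and none of 5 kainate and delta receptor genes (median -0.04) passed, the smallest adjusted p being 0.162 in Slc38a2, a neuronal glutamine transporter, and 0.109 in Grik5, a kainate receptor subunit.

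Between genotypes, no gene of these lists passed in any comparison. Under ethanol the smallest adjusted p values were for Grid1, an orphan delta receptor, at 0.47 (standard error 0.11, adjusted p = 0.129), Shisa6, an AMPA receptor auxiliary protein, at 0.66 (adjusted p = 0.150), and Slc17a7, the vesicular glutamate transporter of cortical excitatory neurons, at -0.48 (adjusted p = 0.174, limma). Under saline Fyn-null minus control was -0.41 for Grik3 (adjusted p = 0.9999) and 0.12 for Grid1.

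Markers of cell types also differed between groups in places, and their part in the receptor values was not tested. Over both genotypes 5 of 6 endothelial genes were called lower in ethanol pools (median -0.48), in the fit without the 3' to 5' covariate. Their mean log2 level was 6.79 to 6.80 in Fyn-null ethanol and 6.57 to 6.69 in control ethanol pools, against 7.09 to 7.30 in Fyn-null saline and 7.02 to 7.17 in control saline pools. The other called markers for ethanol were Aif1 of 6 microglial genes, lower at -0.44 (adjusted p = 0.00435), and Neurod2 of 6 excitatory, Ppp1r1b of 4 striatal and Bcl11b of 6 cortical layer genes, higher at 0.29, 0.21 and 0.19. Their lists as a whole did not rise. The excitatory genes had 2 above 0 and 4 below (median -0.05), the striatal genes 2 and 2 (median -0.08) and the cortical layer genes 2 and 4 (median -0.04). No inhibitory neuron, astrocyte, oligodendrocyte or precursor gene passed. Under ethanol the mean level of 6 excitatory neuron genes was 9.83 to 9.93 in Fyn-null pools and 10.07 to 10.28 in control pools. These did not overlap, as was so of 20.3% of single probe sets in that comparison. Of the 6 genes 4 were lower (median -0.30) and none was called. All 6 astrocyte genes (median 0.18) and all 6 endothelial genes (median 0.17) were above 0 there, none called. Of the 7 striatal projection neuron genes, 4 were above the limit on low signal, and their mean level was 7.21 to 7.42.

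As a description of pattern, the 3 genes whose brightest probe sets correlated best with a receptor gene over the 12 pools were sought among 12322 other measured genes, or 12323 for the probe set paired with Grin1. For Grin2b they were Tmem254a (0.92), Stk38 (0.92) and Tmem81 (0.92). For Gria2 they were Sox9 (0.97), Thumpd1 (0.96) and Elavl2 (0.95), and for Gria4 Kalrn (0.92), Nrep (0.91) and Ddx46 (0.91). For the probe set paired with Grin1 they were Sprn (0.93), Clip2 (0.91) and Faah (0.88). The pools share treatment, genotype and RNA quality in all of these.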

How the data were processed

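Total RNA of 12 pools was hybridised to Affymetrix whole-genome mouse arrays. The deposited values are on the log2 scale, made by the authors with affy and RMA per the submitters' processing notes; no version is stated for them, nor whether the values had passed a batch-effect step. The S-score of the methods works on probe-level intensity and was not computed. After removal of 64 control probe sets, the dimmest 45% by mean over all arrays were dropped, so 24770 remained. Probe set names came from the platform's annotation, in which 34958 probe sets have 1 symbol, 932 several and 9211 none. Array medians were 5.40 to 5.48 and correlations between arrays 0.982 to 0.997. The number of arrays limits the precision.

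Linear models (limma 3.58.1, under R 4.3.3, lmFit then eBayes) were fitted to every probe set by the means of 4 groups or by genotype and treatment as additive terms, with Benjamini-Hochberg adjustment over all probe sets and calls at an adjusted p under 0.05. Differences between probe sets of a gene were fitted likewise over all pairs. The fits were tested on simulated data. The members, gene lists and named genes were chosen with earlier results of these data known. The rule names every receptor probe set, the called members of each list (up to 4) or at most 2 with the smallest p, and the 3 genes most like Grin1, Grin2b, Gria2 and Gria4. A gene stands by its probe set with the highest mean. Alternatives were other filters, quantile normalization on top of RMA, a block on replicate number, robust eBayes with a trend, arrayWeights, fits restricted to the groups compared, averaging the probe sets of a gene and leaving out each array. The 3' to 5' covariate, leaving out both doubted pools and the pairs of probe sets were added after the data were seen.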

Additional observations from a re-analysis of the deposited data

How the results depend on the processing

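The count of receptor probe sets called stayed at 0 in the saline comparison and the interaction under each alternative. For ethanol over both genotypes it was 1 with a 60% filter (Grin2c, adjusted p = 0.0460), 2 with a further quantile normalization (Grin2c, 0.0336), 2 with robust eBayes with a trend (Grin2c, 0.0481, and Gria2, 0.0413), while Grin2c also passed when the probe sets of a gene were averaged (0.0310). It was 6 with arrayWeights, under which 15.6% of all probe sets were called in place of 6.81%. The share of all probe sets was 8.49% with the 60% filter, 7.92% with quantile normalization and 7.09% with robust eBayes. With arrayWeights the counts were also 3 for the genotypes under ethanol (16% of all probe sets), 2 for ethanol in Fyn-null mice (11.2% of all) and 2 for genotype over both treatments (7.25% of all). In the same setting Grin2b was at -0.47 for ethanol over both genotypes (adjusted p = 0.00794). Leaving out each array in turn gave 0 to 2 calls for ethanol over both genotypes (3.11% to 6.56% of all probe sets). For ethanol in control mice it gave 0 to 1, where Grin2b was at -0.73 without control ethanol replicate 4 (adjusted p = 0.0424, with 1.45% of all called). The range was 0 to 0 in the other comparisons. Without both doubted pools 1 was called for genotype over both treatments (2.7% of all probe sets).

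Of receptor pairs for ethanol over both genotypes, 1 was called with the 60% filter (1.21% of all pairs) and 0 with the 3' to 5' covariate (0% of all pairs). The count was 1 without both doubted pools (0.697% of all pairs) and 0 to 2 when leaving out each array (0.124% to 2.97% of all pairs). It was 0 without control ethanol replicates 1 or 2, Fyn-null ethanol replicates 2 or 3 or Fyn-null saline replicate 3, and 1 without control saline replicates 2 or 3. The shift itself stayed between 0.37 and 0.56 in Gria3 over 20 settings, and between 0.12 and 0.95 in Grin2b over the 19 in which its pair was fitted. With arrayWeights 2 pairs were called for the genotypes under ethanol (12.2% of all pairs), 2 for ethanol in control mice (1.1% of all) and 1 for genotype over both treatments (3.1% of all). Without both doubted pools 1 was called for genotype over both treatments (2.27% of all pairs).

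Some gene differences changed sign by more than 1 standard error, none of them called. When the probe sets of a gene were averaged, those for ethanol over both genotypes were 0.083 for Grin2b, 0.075 for Gria1, 0.16 for Gria3 and 0.092 for Gria4, in control mice 0.059 for Grin2b, 0.22 for Gria3 and 0.12 for Gria4, and in Fyn-null mice 0.11, 0.098 and 0.061 for the same genes. Fyn-null minus control became -0.092 under saline and -0.061 under ethanol for Gria1, -0.16 under ethanol for Gria4, and over both treatments -0.076 for Gria1, -0.066 for Gria2 and -0.13 for Gria4, and the interaction of Gria4 was -0.063. With the 3' to 5' covariate, ethanol over both genotypes was 0.045 for Grin2c, 0.063 for Grin3a, 0.15 for Gria1 and 0.10 for Gria3, in control mice 0.13 for Gria1 and 0.084 for Gria3, and in Fyn-null mice 0.15 for Grin2c, 0.17 for Grin3a, 0.18 for Gria1 and 0.13 for Gria3. The pair shifts of Grin3a 1436575_at and Gria2 1453098_at were -0.0016 and -0.12 with it. Without both doubted pools Gria4 was at 0.20 under saline and -0.026 for the interaction. Leaving out each array gave saline differences of -0.12 to 0.099 for Gria4, highest without control saline replicate 2, and of -0.14 to 0.10 for Grin2c, lowest without control saline replicate 1 and highest without replicate 3. The cause of these changes was not tested.

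With the replicate number as a block, the receptor count was 0 in each comparison and the pair count 0 of 11, with Gria3 at 0.46 (adjusted p = 0.103) and Grin2b at 0.75 (adjusted p = 0.0995), and the calls over the array for ethanol over both genotypes were 710 in place of 1686. The numbers did not pair the samples, since only 3 of the 13 same-numbered pairs of arrays deviated together at a correlation above 0.1 (from -0.43 to 0.32), while for 2 of 12 arrays the nearest one bore the same number.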
